A study of Mus musculus with 46 samples.

Results

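The genes described here are the potassium channel genes of the mouse, taken as every gene of the RNA count table whose symbol starts with Kcn, which gave 96 of 31854 genes. By symbol they were grouped as 41 voltage-gated alpha subunits, 18 auxiliary genes, 15 inward rectifiers and 13 2-pore-domain channels. The rest were grouped as 8 calcium- or sodium-activated channels and 1 transcript that encodes no channel (Kcnd3os). Grouping followed the symbol alone, so a member such as Kcnrg or Kcnu1 need not match its group's name. The Kcn genes were followed in AgRP neurons, which drive feeding, and in POMC neurons, which restrain it, 2 cell types of the arcuate nucleus of the hypothalamus. The mice carried NuTRAP, a transgene that a stop cassette keeps silent until Cre removes it and that then labels ribosomes with GFP on the subunit L10a and the nuclear envelope with mCherry on RANGAP. Cre came from AgRP-IRES-Cre or POMC-IRES-Cre, so each library reports cells that expressed Cre from the Agrp or the Pomc locus, including any that did so only transiently. The animals were male C57BL/6J mice of 6 to 11 weeks in 3 states: fed ad libitum with vehicle, fasted overnight with vehicle, and fasted overnight with injected leptin. Ribosome-bound RNA (translating ribosome affinity purification, TRAP) was sequenced from 3 fed, 4 fasted and 4 leptin-treated AgRP samples and from 2 POMC samples per state, each made from 4 pooled arcuate nuclei. Open chromatin was measured by ATAC-seq in sorted AgRP-positive nuclei, in 2 libraries per state, and in AgRP-positive and AgRP-negative nuclei of fed, untreated mice, in 2 libraries each. The study took AgRP-positive and AgRP-negative nuclei from the same pooled samples, so these libraries share pools. The other samples are labelled as separate, but nothing says that they came from separate experiments. The p-values therefore measure only the spread between these samples.

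Potassium channels let potassium leave the cell and so hold the membrane potential negative and end action potentials. Voltage-gated channels are tetramers of alpha subunits that open on depolarisation, some alpha subunits are silent on their own and only modify others, and auxiliary subunits change gating or traffic. Inward rectifiers and 2-pore-domain channels set the resting potential and input resistance, and G protein-gated and ATP-sensitive inward rectifiers connect transmitter receptors and energy state to the firing of arcuate neurons.

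Between 25581041 and 54511107 counts per RNA library fell on genes, and ATAC-seq libraries held 8263234 to 17190963 counts in peaks (8685497 to 11177208 in the sorted comparison). Levels are given as CPM, the count of a gene scaled to the effective size of its library (TMM). The summed level of 3 AgRP neuron markers (Agrp, Npy, Corin) was 761 to 5347 CPM in AgRP and 18.6 to 83.9 CPM in POMC libraries, and that of 3 POMC neuron markers (Pomc, Cartpt, Prdm12) was 1556 to 2923 CPM in POMC and 56.4 to 97.8 CPM in AgRP libraries. Libraries numbered 4 of AgRP neurons and 2 of POMC neurons stood apart in every state. The glutamate transporter gene Slc1a2, abundant in astrocytes, was at 20180 to 25890 CPM in those AgRP libraries and at 2381 to 3850 in the other 8, and at 23330 to 26970 against 5217 to 6204 CPM in POMC libraries. The sum of 5 astrocyte markers, none of them at 0 in any library, was 836 to 881 against 391 to 616 CPM in AgRP and 997 to 1135 against 626 to 720 CPM in POMC libraries, and 3 of 5 and 4 of 5 of these markers were higher without overlap. The sum of 5 oligodendrocyte markers also stood apart, at 693 to 768 against 423 to 666 CPM in AgRP libraries (2 of 5 higher without overlap). In POMC libraries it was at 708 to 929 against 406 to 488 CPM (5 of 5). That of 5 microglia markers stood apart in POMC libraries, at 41.7 to 52.0 against 22.8 to 39.0 CPM (3 of 5). That of 5 tanycyte and ependymal markers did so in AgRP libraries, at 112 to 150 against 67.6 to 108 CPM (1 of 5). The sum of the POMC neuron markers was lower in POMC libraries numbered 2, at 1556 to 1804 against 2115 to 2923 CPM. Each of these 3 markers was lower there without overlap. In the AgRP set, 20 of 77 Kcn genes were more than 1.5-fold higher and 3 lower in the libraries numbered 4, where 10.3% of all genes were higher and 1.88% lower. Among the higher ones were Kcnj10, the astrocytic inward rectifier (822 to 958 against 131 to 321 CPM), Kcnq3 (278 to 413 against 70.9 to 123 CPM) and Kcnj6 (172 to 225 against 46.6 to 74.8 CPM). In the POMC set 23 of 77 were more than 1.5-fold higher and 0 lower in the libraries numbered 2, where 12.4% of all genes were higher and 1.52% lower. The part these libraries play in each result was not tested beyond the values without them, and in bulk RNA fewer cells of a type cannot be told apart from less RNA per cell.

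Of the 96 genes, 76 had a mean over 1 CPM in the AgRP libraries and could be tested. The other 20 included Kcnk5, Kcnk7, Kcnk15, Kcnk16 and Kcnk18 of the 2-pore-domain channels and the inward rectifiers Kcnj1, Kcnj13 and Kcnj15. They also included Kcne1 to Kcne4, Kcnmb3 and Kcnrg, grouped as auxiliary, the alpha subunits Kcna7 and Kcna10, the calcium-activated Kcnn4, and Kcnd3os. The last were the table's entries Kcnd3 and Kcnmb4, for which a second entry of the same gene (Kcnd3.2, Kcnmb4.2) held nearly all counts. Kcna7 had no count in any library. Per kilobase of exon the highest mean level in AgRP libraries was that of Kcnk9, the acid-sensitive leak channel TASK, at 184 ± 28.6 CPM per kb (SD, n = 11) against 44.2 ± 11.5 (SD, n = 6) in POMC libraries, where it ranked 5. Kcnj10 followed at 70.2 ± 60.3 CPM per kb and Kcnq3, a subunit of the M current that restrains repetitive firing, at 58.7 ± 45.9 CPM per kb. The SD of both was nearly as large as the mean, and their highest values were in the libraries numbered 4. In the other AgRP libraries both had lower means per kilobase than Kcnf1, Kcnk2 and Kcnc2, so their ranks rest on the libraries numbered 4. In POMC libraries Kcnj10 (121 ± 68.5 CPM per kb) and Kcnq3 (101 ± 58.5 CPM per kb) ranked first and second. Kcnf1, a silent alpha subunit, stood at 50.2 ± 8.81 CPM per kb in AgRP libraries (rank 4) and 19.4 ± 2.77 CPM per kb in POMC libraries (rank 22). Lower in AgRP libraries stood Kcnk2, the mechanically gated leak channel TREK (42.7 CPM per kb), Kcnc2, a fast delayed rectifier (38.6 CPM per kb), and the auxiliary subunits Kcnip1 (31.9 CPM per kb) and Kcnab2 (31.4 CPM per kb). The exon lengths are those of the count table. For Kcnk9 this is 1209 bases where GENCODE vM21 has 12300, and for Kcnq3 2878 where it has 14708, so their levels per kilobase and ranks depend on that length.

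**Figure D1:**
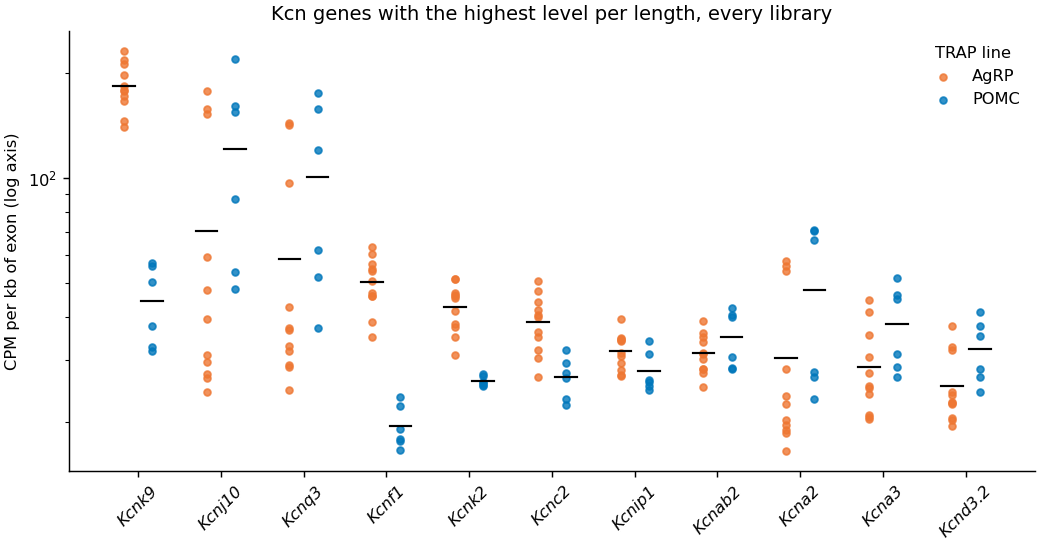
Level of 11 Kcn genes in CPM per kilobase of exon on a log axis. Each point is 1 library of AgRP or POMC neurons and each bar is the mean of the line: Kcnk9 leads in AgRP neurons, whereas for Kcnj10 and Kcnq3 3 AgRP and 3 POMC libraries, those that stood apart, lie above all others of their line.

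Fasting against feeding in AgRP neurons asks which channels change with energy deficit. It raised 7 of the 76 tested Kcn genes and lowered none, at a false discovery rate (FDR) under 0.05 in edgeR's quasi-likelihood test with Benjamini-Hochberg adjustment over 13401 genes and an absolute log2 fold change over 0.5. Of all genes tested, 2.82% were called higher and 1.07% lower. The raised genes were the auxiliary subunits Kcnab1 and Kcnmb4.2, the inward rectifier Kcnj4, the silent alpha subunits Kcnv1 and Kcnv2, the delayed rectifier Kcnc2 and the leak channel Kcnk1. None of 7 channels grouped as calcium- or sodium-activated was called. The median log2 fold change over the 76 genes was -0.05, with 29 above 0, against a median of 0.02 over all genes. At an unadjusted p under 0.05, 13 Kcn genes were higher and 7 lower (17.1% and 9.21%, where 12.4% and 6.92% of all genes were).

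Kcnab1 (chr3:65109384-65378223, plus strand, GRCm38), the beta subunit that gives Shaker-type channels fast inactivation, stood at 47.5, 52.9 and 52.9 CPM in the 3 fed libraries and at 118, 97.4, 114 and 98.0 CPM in the 4 fasted ones. All fasted libraries lay above all fed libraries, including those numbered 4. The log2 fold change was 1.07 ± 0.09 (SE) with an FDR of 0.000491 in edgeR's quasi-likelihood test. The call held in all 18 alternative analyses. The gene shares 201 exon bases with A330015K06Rik on the opposite strand, and the library kit does not mark strand, so reads in that stretch cannot be told apart.

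Kcnmb4 (chr10:116417861-116473878, minus strand) encodes the neuronal beta subunit of the large-conductance calcium-activated channel whose pore is Kcnma1. Its entry Kcnmb4.2 rose from 10.5, 9.19 and 15.7 CPM to 20.4, 19.7, 20.3 and 22.7 CPM, a log2 fold change of 0.83 ± 0.20 (edgeR FDR 0.0331). The groups did not overlap, but the call was lost without any 1 of the 4 fasted libraries or without fed library 1 or 3, with an FDR of up to 0.145 and a log2 fold change of 0.68 at the least. Kcnma1 itself was at 110 to 289 CPM in fed and 100 to 353 CPM in fasted libraries, with the highest value of each group in library 4. Kcnmb4 overlaps the antisense transcripts Kcnmb4os1 and Kcnmb4os2, so its counts could include theirs.

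Among inward rectifiers, Kcnj4 (chr15:79483714-79505241, minus strand), a constitutively active channel of the Kir2 type, rose from 7.26, 8.21 and 8.29 CPM to 15.9, 15.2, 16.5 and 15.4 CPM. The fasted values lay within 1.3 CPM of each other. The log2 fold change was 1.00 ± 0.10 (edgeR FDR 0.000848), and the call held in all 18 alternatives. Kcnj5 (chr9:32314707-32344350, minus strand), a G protein-gated subunit, stood at 67.8, 68.4 and 50.6 CPM when fed and 104, 72.0, 98.1 and 78.0 CPM when fasted, without overlap, but at a log2 fold change of 0.51 ± 0.16 its FDR of 0.105 missed the threshold.

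The silent subunits, which carry no current alone and alter other alpha subunits, included the largest change. Kcnv2 (chr19:27322588-27337179, plus strand) was near the detection limit in fed libraries, with 10, 9 and 7 counts (0.269, 0.222 and 0.286 CPM), and reached 189, 201, 187 and 48 counts (5.71, 3.90, 4.04 and 1.67 CPM) in fasted ones. The log2 fold change was 3.90 ± 0.72 (edgeR FDR 0.0109), and the call was lost without fed library 3 or fed library 1, where the FDR was 0.0574. Kcnv1 (chr15:45106284-45114920, minus strand) went from 35.1, 31.2 and 25.6 CPM to 59.4, 48.8, 46.9 and 51.3 CPM, a log2 fold change of 0.76 ± 0.15 (FDR 0.0127). This call was lost without fed library 4 and with library size as the only scaling (FDR 0.116), the log2 fold change staying at 0.63 or above. Another modifier, Kcng1, had lower values in fasted libraries (7.29, 8.43 and 9.84 against 5.23, 5.60, 4.58 and 6.77 CPM), and its log2 fold change of -0.61 ± 0.18 did not pass (FDR 0.0831).

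Kcnk1 (chr8:125995170-126030685, plus strand), the weakly conducting leak channel TWIK, rose from 54.9, 59.3 and 40.9 CPM to 93.6, 88.5, 106 and 72.0 CPM. The log2 fold change was 0.81 ± 0.16 (edgeR FDR 0.0160), lost without fed library 1, fed library 4 or fasted library 3 and with library size as the only scaling (FDR 0.111), at a log2 fold change of 0.65 to 0.92. Kcnc2 (chr10:112271121-112467024, plus strand), which supports rapid repolarisation, rose from 203, 220 and 170 CPM to 319, 264, 298 and 255 CPM. Its log2 fold change of 0.53 ± 0.13 (FDR 0.0375) lay close to both thresholds, and the call was lost in 12 of 18 alternatives, 8 of them the omission of 1 library (any fed library, fasted library 1, 2 or 3, or leptin library 1 or 2), at a log2 fold change of 0.42 to 0.62.

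**Figure D2:**
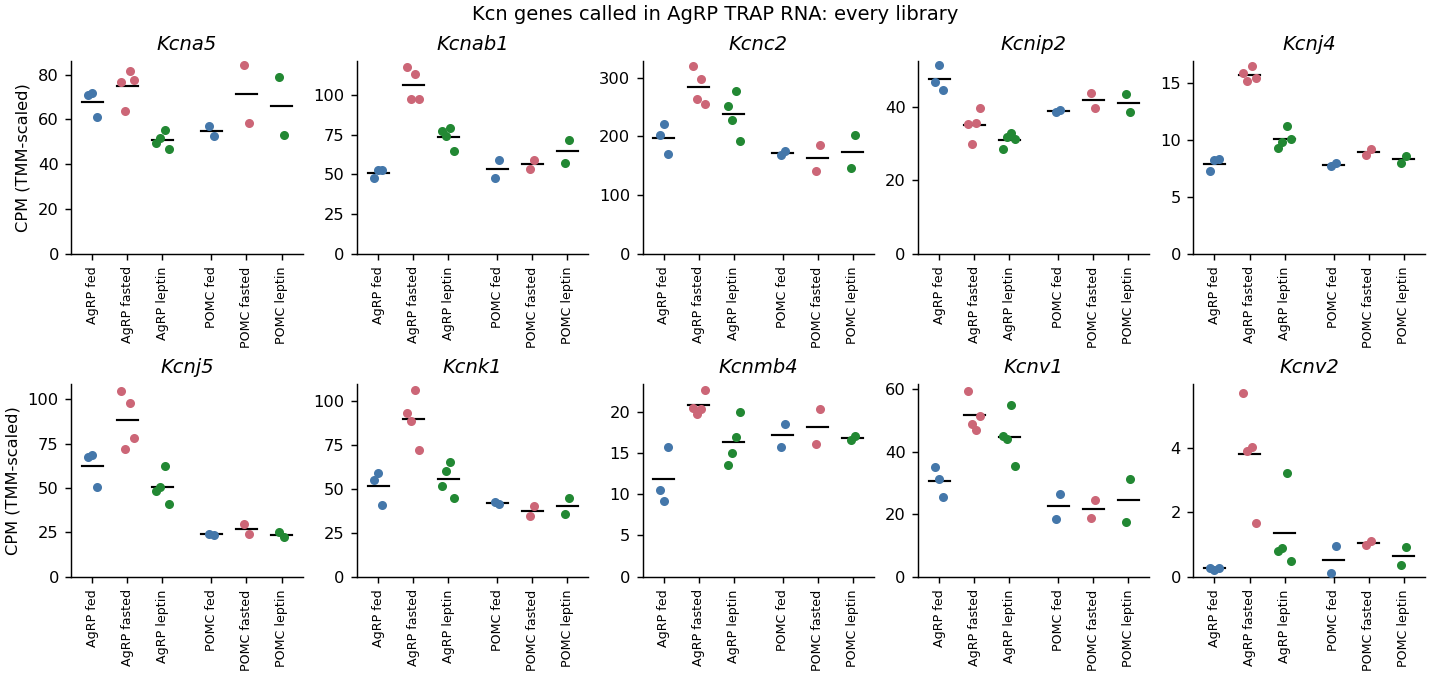
Level in CPM of 10 Kcn genes called in at least 1 contrast of AgRP neurons, for every AgRP and POMC library by state. Points are libraries and bars are group means: the fasted AgRP libraries lie above the fed ones for the 7 genes raised by fasting, and no POMC contrast of these genes was called.

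Same-numbered AgRP libraries deviated together, and with the number as a replicate block 10 Kcn genes were called, where 6.94% of all genes were called in either direction. All 7 remained, and Kcnj5 (0.55, FDR 0.00123) joined them as raised, whereas Kcng1 (-0.58, FDR 0.00509) and Kcnj10 (-0.69, FDR 0.00580) were called lower. Without the libraries numbered 4, 14 genes were called, 6 higher and 8 lower, where 5.28% of all genes were called. Kcnc2 was no longer among them (0.46), and the lower genes were Kcnmb1 (-1.20), Kcnj10 (-0.99), Kcnb2 (-0.74), Kcnn3 (-0.65), Kcng1 (-0.62), Kcnip2 (-0.56), Kcnt2 (-0.55) and Kcnj6 (-0.50). In the libraries that remained, the astrocyte marker sum was 616 and 496 CPM in fed and 402, 413 and 402 CPM in fasted samples and moved the same way as Kcnj10. Its part in these decreases was not tested.

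Leptin given during the fast was compared with fasting alone in the same model, so that the fasted libraries enter both contrasts. It lowered 5 Kcn genes and raised none. Of all genes, 0.634% were called lower and 1.19% higher. Kcng1, which the study lists among ion channel genes induced by leptin, was not called. It was at 7.70, 6.59, 7.57 and 9.61 CPM after leptin against 5.23, 5.60, 4.58 and 6.77 CPM in fasted libraries, with overlap. Kcnj4 stood at 9.31, 9.84, 11.2 and 10.1 CPM after leptin, below all fasted and above all fed libraries, with a log2 fold change against fasting of -0.64 ± 0.09 (edgeR FDR 0.00339). Kcnab1 was at 77.6, 74.2, 79.1 and 65.0 CPM, again between the other states (-0.53 ± 0.08, FDR 0.00600). Kcnk1 was at 52.0, 60.4, 65.5 and 44.95 CPM, below all fasted libraries and overlapping the fed ones (-0.69 ± 0.15, FDR 0.0354).

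Of the 5 genes called, Kcnj5 fell furthest. It was at 48.6, 50.5, 62.5 and 40.9 CPM after leptin against 72.0 to 104 CPM in fasted libraries (-0.80 ± 0.15, FDR 0.0177 in edgeR). Kcna5, a delayed rectifier of the Shaker family, did not pass with fasting (0.15 ± 0.10, FDR 0.460) but was at 49.3, 51.8, 55.3 and 46.6 CPM after leptin against 76.6, 63.5, 81.8 and 77.5 CPM in fasted and 71.0, 72.0 and 60.8 CPM in fed libraries (-0.56 ± 0.09 against fasted, FDR 0.00868). The Kcnj4 call held in all 18 alternatives. The Kcna5 call was lost with library size as the only scaling, the Kcnab1 call without fasted library 1, fasted library 3 or leptin library 4, the Kcnj5 call without fasted library 1 or 3 or leptin library 1 or 2, and the Kcnk1 call without any of 7 single libraries (fasted 1, 2 or 3, fed 1, leptin 1, 2 or 4). Over all alternatives the log2 fold change of Kcna5 was -0.63 to -0.51, that of Kcnab1 -0.57 to -0.48, that of Kcnj5 -0.91 to -0.72 and that of Kcnk1 -0.78 to -0.60. Kcnv2 was at 0.801, 0.885, 3.23 and 0.479 CPM, of which leptin library 3 reached the fasted range, and its change of -1.46 ± 0.51 did not pass (FDR 0.292). With the replicate block 6 genes were called (2.91% of all genes), Kcnv2 being added (-1.43, FDR 0.0153). Without the libraries numbered 4 there were also 6 (2.47% of all genes), with Kcnh2, an erg channel, added (-0.51, FDR 0.00681).

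Against feeding, with the fed and leptin libraries already used above, leptin-treated libraries differed in 3 Kcn genes. Of all genes, 3.73% were called higher and 1.75% lower. Kcnab1 was higher (0.54 ± 0.09, edgeR FDR 0.00494), as was Kcnv1 at 44.9, 44.0, 54.7 and 35.2 CPM (0.55 ± 0.14, FDR 0.0390). Both calls were lost with library size as the only scaling (edgeR FDR 0.0998 and 0.237). The Kcnab1 call was also lost without fed library 1. That of Kcnv1 was also lost with no filter and in 9 of 11 omissions of 1 library (all but fasted 1 and leptin 4). The log2 fold changes were 0.48 to 0.60 for Kcnab1 and 0.43 to 0.65 for Kcnv1 over all alternatives. Kcnip2, a calcium-binding subunit of A-type channels, was lower, at 28.5, 31.9, 32.9 and 31.3 CPM after leptin against 46.9, 51.5 and 44.8 CPM when fed (-0.60 ± 0.11, FDR 0.00698), and its call held in all 18 alternatives. In fasted libraries Kcnip2 was at 35.5, 29.9, 35.7 and 39.9 CPM, a change from feeding of -0.43 ± 0.11 that passed the FDR (0.0434) but not the fold threshold. With the replicate block 8 genes were called (8.57% of all genes), those added including Kcnmb4.2 (0.54), Kcnv2 (2.63), Kcnj10 (-0.53) and Kcnu1 (-0.50). Without the libraries numbered 4 there were 7 (6.59% of all genes), adding Kcnmb4.2 (0.61), Kcnj10 (-0.74), Kcnn3 (-0.61) and Kcna3 (-0.51).

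**Figure D3:**
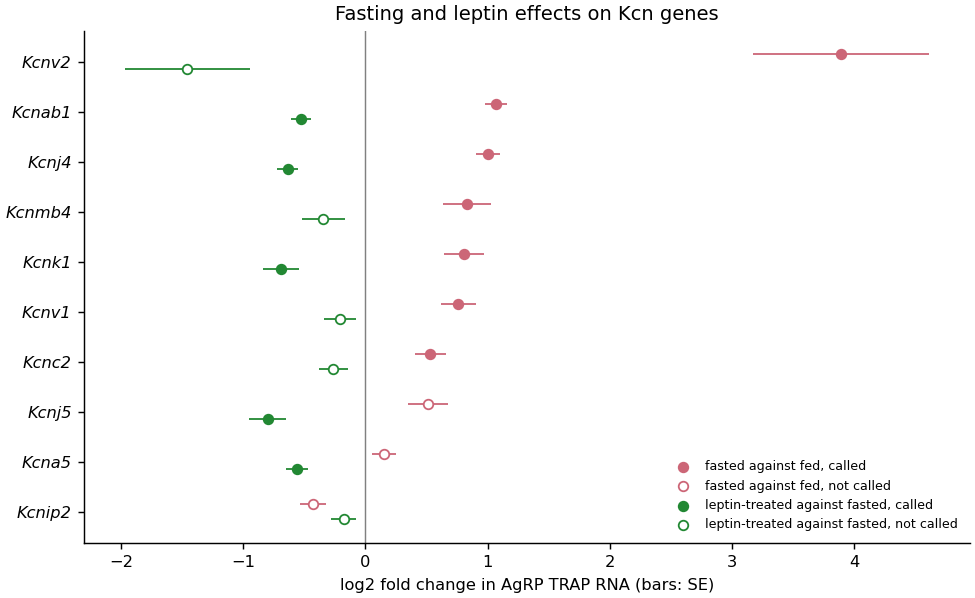
Log2 fold change with its standard error for the 10 Kcn genes called in AgRP neurons, in fasting against feeding (red) and leptin against fasting (green), contrasts that share the fasted libraries. Filled points passed FDR and fold thresholds: Kcnab1, Kcnj4 and Kcnk1 are filled in both, raised by fasting and lowered by leptin.

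In POMC neurons, with 2 libraries per state, no Kcn gene was called in either contrast. Of all 13412 genes, 0% were called higher and 0% lower in each. At an unadjusted p under 0.05 in edgeR's quasi-likelihood test there were 135 genes higher and 147 lower with fasting, of which 2 and 1 were Kcn genes (Kcnj11 0.37, Kcnd1 0.44 and Kcnj13 -2.60), and 115 higher and 36 lower with leptin, of which 1 and 1 were Kcn genes (Kcnj13 2.40 and Kcnj11 -0.31). DESeq2 also called 0 Kcn genes in both contrasts. Kcnj13 lay near the floor in POMC libraries, with 39 and 122 counts when fed, 10 and 7 when fasted and 74 and 32 after leptin. Kcnab1 was at 48.0 and 59.0 CPM when fed, 53.4 and 59.2 CPM when fasted and 57.2 and 71.9 CPM after leptin, a fasting change of 0.07 ± 0.17. Kcnj4 was at 7.70 and 7.95, 8.72 and 9.18, and 7.99 and 8.58 CPM (0.20 ± 0.14 with fasting). Kcnv2, at 0.108 and 0.940 CPM when fed, had a mean under 1 CPM and was not tested.

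Whether the fasting effect differed between the lines was tested as an interaction. No Kcn gene passed, where 0.141% of all genes had a larger and 0.0223% a smaller effect in AgRP neurons. Kcnab1 (0.99 ± 0.18) and Kcnj4 (0.80 ± 0.15) came closest, both at an FDR of 0.0526 in edgeR's quasi-likelihood test, and DESeq2 called 2 Kcn genes. With the replicate number as a block within each line, 8 Kcn genes were called (6.22% of all genes): Kcnab1 (1.00, FDR 0.000264), Kcnk1 (0.96), Kcnj4 (0.82), Kcnv1 (0.82), Kcnmb4.2 (0.80) and Kcnc2 (0.64) with a larger effect in AgRP neurons and Kcnd1 (-0.58) and Kcnip2 (-0.52) with a smaller one. For the leptin effect none passed either, where 0.0447% of all genes were called higher and 0.0372% lower. With the block 2 Kcn genes were called (0.759% of all genes), Kcnk1 (-0.80) and Kcnab1 (-0.72). At an unadjusted p under 0.05, 8 Kcn genes had a larger and 4 a smaller fasting effect (10.5% and 5.26%, where 5.63% and 3.33% of all genes did), and 0 had a larger and 6 a smaller leptin effect (7.89% smaller, where 1.17% of all genes were larger and 1.73% smaller).

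The 2 lines were then compared over the 3 states, each state weighted equally. Line and anything else that differed between the 2 sets of mice cannot be told apart. Of the 76 Kcn genes, 7 were higher in AgRP and 10 higher in POMC neurons, where 6.51% of all genes were called higher and 6.45% lower in AgRP neurons. With library size as the only scaling the split was 8 and 6. The median log2 difference over the 76 genes was -0.22, against -0.02 over all genes, with 23 above 0. The libraries that stood apart, in which more Kcn genes were higher than lower, were 3 of 11 AgRP but 3 of 6 POMC libraries. Without them the Kcn median was -0.13, against 0.002 over all genes, with 34 of 76 above 0. The part of this unequal mix in the shift was not tested further.

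The largest difference in each direction was at a 2-pore-domain channel, and of these 3 of 8 were higher and 3 lower in AgRP neurons. Kcnk9 (chr15:72501089-72546340, minus strand) ranged from 169 to 279 CPM with a median of 215 in the 11 AgRP libraries and from 38.5 to 69.0 CPM with a median of 53.0 in the 6 POMC libraries, with no overlap and a log2 difference of 2.02 ± 0.15 (edgeR FDR 2.31e-07). Kcnk2 (chr1:189207930-189402273, minus strand) was at 128 to 212 CPM (median 186) against 104 to 113 CPM (median 106), a difference of 0.71 ± 0.07 (FDR 6.96e-06). Kcnk1 followed at 0.68 ± 0.11 (FDR 0.000386), with overlapping ranges of 40.9 to 106 and 34.5 to 44.9 CPM. Its call was lost in fed libraries alone (FDR 0.514) and leptin libraries alone, and the log2 difference ran from 0.30 to 1.26 over the alternatives. Kcnk13 and Kcnk12, the halothane-inhibited THIK channels, went the other way. Kcnk13 (chr12:99964499-100062682, plus strand) was at 3.59 to 7.72 CPM (median 5.12) in AgRP and 13.1 to 27.97 CPM (median 18.7) in POMC libraries, a difference of -1.76 ± 0.14 (FDR 5.84e-07), and Kcnk12 (chr17:87745801-87797994, minus strand) at 11.4 to 13.8 CPM against 16.2 to 25.9 CPM (-0.79 ± 0.10, FDR 3.86e-05). Kcnk10 was lower in AgRP neurons at -0.53 ± 0.10.

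Among G protein-gated rectifiers, whose channels are tetramers of mixed subunits, 2 members went in opposite directions. Kcnj5 was at 40.9 to 104 CPM (median 67.8) in AgRP and 22.2 to 29.5 CPM (median 24.2) in POMC libraries, a difference of 1.40 ± 0.11 (edgeR FDR 7.72e-07). Kcnj3 (chr2:55435970-55598145, plus strand) was at 61.4 to 101 CPM (median 75.2) against 116 to 144 CPM (median 137), a difference of -0.74 ± 0.09 (FDR 3.52e-05). Kcnj9, at 50.9 to 82.7 and 51.8 to 59.5 CPM, and Kcnj6, at 46.6 to 225 and 67.5 to 225 CPM, were not called. Per kilobase of exon the mean levels of the 4 subunits in AgRP libraries were 15.4 (Kcnj9), 15.2 (Kcnj3), 15.0 (Kcnj5) and 12.9 CPM per kb (Kcnj6). In POMC libraries Kcnj5 was at 5.51 and Kcnj3 at 25.7 CPM per kb. Without the libraries that stood apart the means in AgRP libraries were 15.9 for Kcnj9, 14.2 for Kcnj3, 15.9 for Kcnj5 and 7.70 CPM per kb for Kcnj6. Kcnj3, Kcnj6 and Kcnj9 each share exon bases with an opposite-strand transcript.

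Of the voltage-gated subunits, Kcnf1 (chr12:17172100-17176888, minus strand) was at 167 to 304 CPM (median 243) in AgRP and 79.4 to 112 CPM (median 88.2) in POMC libraries, a difference of 1.34 ± 0.10 (edgeR FDR 4.02e-07). Kcnv1 (0.86 ± 0.14) and Kcng4 (0.56 ± 0.16), both silent subunits, were also higher in AgRP neurons. Kcnh7 (-1.10 ± 0.34), an erg channel, Kcns2 (-0.61 ± 0.14), Kcnc1 (-0.56 ± 0.13) and Kcns3 (-0.50 ± 0.16) were lower, as were the calcium-activated Kcnn3 (-0.71 ± 0.18) and the sodium-activated Kcnt2 (-0.51 ± 0.09). These 8 had overlapping ranges. Kcns3 lost its call in 18 of 27 alternatives, Kcnt2 in 12, and Kcnh7 without any 1 of the 3 POMC libraries numbered 2, its log2 difference over all alternatives lying between -1.53 and -0.84. Kcng4 was lost without POMC fed library 1 or leptin library 2, Kcnc1 without POMC fasted or fed library 2, Kcns2 without POMC fasted library 2 and Kcnk10 without POMC fed library 1. Kcnh7, Kcnn3, Kcnc1, Kcng4 and Kcns2 were also lost in each state alone, and Kcnk10 in fed and in leptin libraries alone. Kcng4 and Kcns2 were further lost without the libraries that stood apart. The replicate block lost Kcng4, Kcns2 and Kcnk10, and library size as the only scaling lost Kcnc1 and Kcnk10. None of 11 auxiliary subunits was called. Kcnk9, Kcnf1, Kcnj5 and Kcnk13 kept their calls in all 27 alternatives, including each state alone. Kcnv1 (0.45 to 1.25 over the alternatives) and Kcnk12 lost theirs in fed and in leptin libraries alone, Kcnk2 in leptin libraries alone and Kcnj3 in fed libraries alone. Without the libraries that stood apart 20 Kcn genes were called, 10 in each direction (15.9% of all genes).

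**Figure D4:**
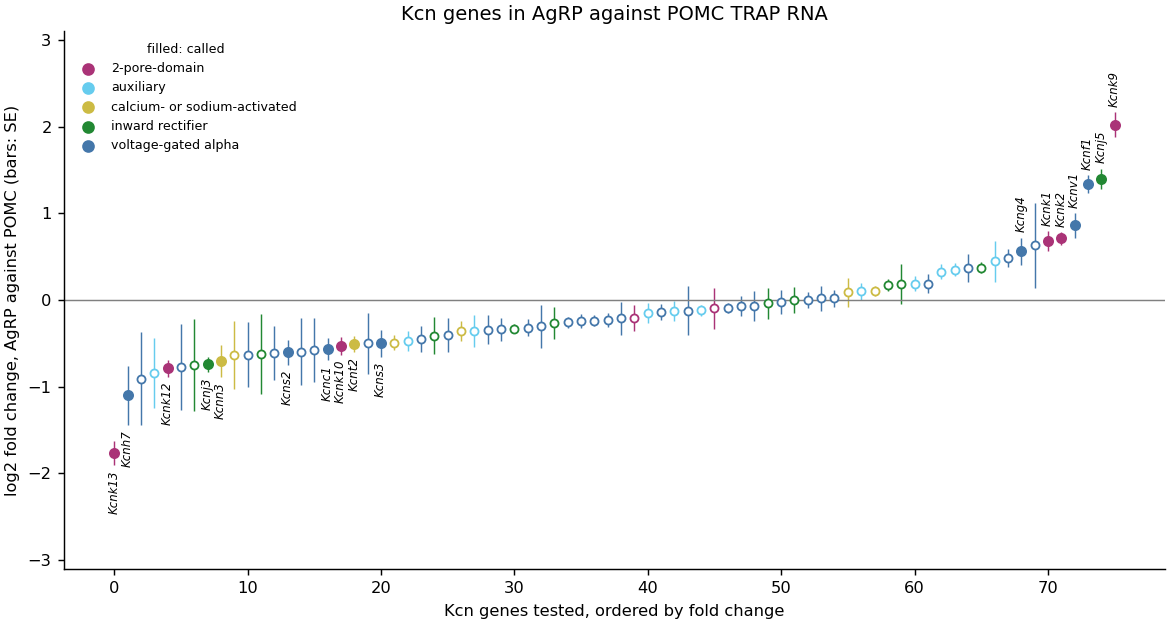
Log2 difference of AgRP minus POMC neurons with its standard error for the 76 Kcn genes tested, ordered by size and coloured by family. Filled points were called, 7 higher in AgRP and 10 higher in POMC neurons: Kcnk9, Kcnj5 and Kcnf1 lie at the upper and Kcnk13 at the lower end.

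The ATP-sensitive pore subunit Kcnj11 was at 20.8 to 27.97 CPM in AgRP and 27.0 to 37.4 CPM in POMC libraries, and Kcnj8, its vascular relative, at 0.382 to 2.22 and 1.01 to 1.68 CPM. The small-conductance channels Kcnn1 (2.87 to 4.63 CPM) and Kcnn2 (8.64 to 13.2 CPM) were low in AgRP libraries beside Kcnn3, although these values are not per length. The A-type pore Kcnd2 was at 107 to 133 CPM in AgRP and 116 to 144 CPM in POMC libraries. Of the partners of Kcn channels that do not carry the prefix, 19 of 22 were tested (sulfonylurea receptors, A-type and scaffold partners). None was called in the 7 contrasts of state or interaction, where 0% to 3.73% of all genes were called in each direction. Between the lines, Amigo1, a partner of delayed rectifiers, was lower in AgRP neurons (-0.54 ± 0.05, edgeR FDR 1.48e-06), as was Abcc9, a sulfonylurea receptor (-0.50 ± 0.17, FDR 0.0315). The Abcc9 difference lay just past the fold threshold, with overlapping ranges of 5.86 to 10.5 CPM in AgRP and 7.96 to 15.2 CPM in POMC libraries. Its POMC values were highest in the libraries numbered 2, at 12.4 to 15.2 CPM, and their part was not tested. Of all genes, 6.51% were called higher and 6.45% lower in AgRP neurons in this comparison. Of the M current genes, Kcnq3 and Kcnq5 were not called in any RNA contrast with all libraries and no block.

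Chromatin at these genes was read from ATAC-seq peaks that overlap a gene body or the 1000 bases before its start. AgRP-positive nuclei gave 726 such peaks at 82 Kcn genes. Fasting opened 134 of them at 37 genes and closed 70 at 29 genes, that is 18.5% and 9.64%, where 18.1% of all peaks opened and 8.88% closed. The 204 calls fell to 114 without fed library 1 and were at most 181 with any library left out. At promoters (peaks overlapping the 1000 bases on either side of a start) none of 68 peaks opened and 1 closed, centred 1362 bases upstream of Kcnk9 (-0.79, edgeR FDR 0.0234), where 1.77% of all promoter peaks opened and 3.6% closed. Outside promoters 20.4% and 10.5% of 658 peaks were called, where 20.5% of all such peaks opened and 9.63% closed. The opened peaks lay in introns (127) or overlapped exons (7). The shares called were near those of all peaks in each class. The largest numbers were at long genes: Kcnma1 with 22 opened and 4 closed of 78 peaks, Kcnip4 with 15 and 5 of 60, Kcnd3.2 with 9 and 4 of 30, and Kcnip1 with 7 and 6 of 51.

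**Figure D5:**
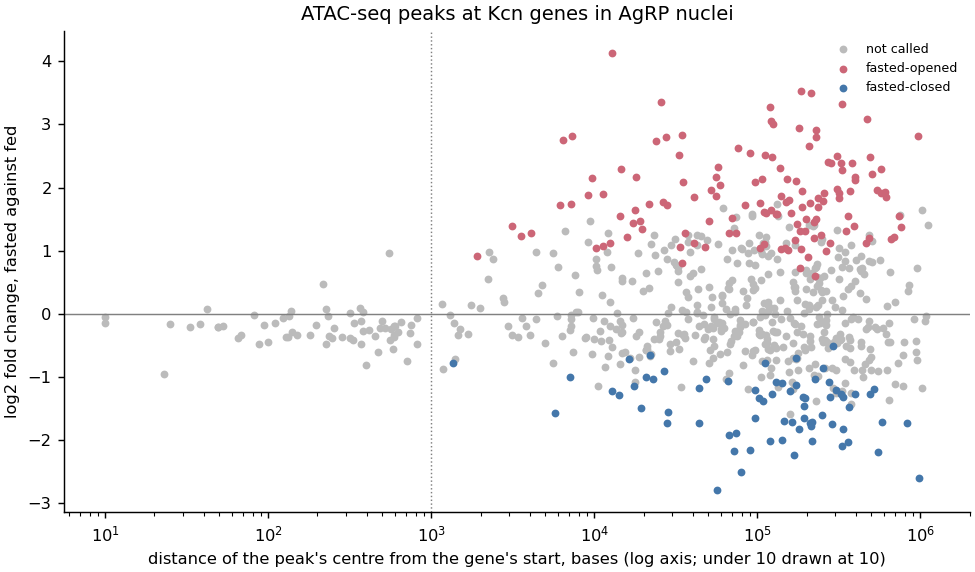
Log2 fold change of each of the 726 ATAC-seq peaks at Kcn genes, fasted against fed AgRP nuclei, by distance of the peak centre from the gene start in bases on a log axis, with 1 uncalled peak shared by Kcnip1 and Kcnmb1 drawn at both distances. The dotted line stands at 1000 bases. No peak centred left of it was called, and the 134 that opened and 70 that closed lie to its right.

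Peaks at the genes called in AgRP RNA are given here one by one, and these were chosen after the RNA values were seen. At Kcnab1, 5 of 16 peaks opened and 1 closed. The peak 25707 bases into the gene (chr3:65134870-65135313, intron) went from 0.126 and 0.804 CPM when fed to 5.11 and 6.38 CPM when fasted and stayed at 4.79 and 6.39 CPM after leptin, a fasting change of 3.36 ± 0.55 (edgeR FDR 0.000242). A stronger one at 187805 bases (chr3:65296858-65297520, over an exon) went from 6.04 and 10.1 to 29.0 and 25.4 CPM and was at 31.4 and 30.9 CPM after leptin (1.68 ± 0.26, FDR 0.000130). The peak that closed, at 96416 bases (chr3:65205353-65206247, intron), fell from 26.8 and 15.1 to 7.76 and 4.99 CPM and was at 3.24 and 4.08 CPM after leptin (-1.66 ± 0.32). Almost the same stretch was more open in AgRP-positive (12.3 and 12.2 CPM) than in AgRP-negative nuclei (2.09 and 3.199 CPM) of fed mice, a difference of 2.20 ± 0.33. The promoter peak at the GENCODE gene start of Kcnab1 did not pass with fasting (-0.18 ± 0.33, FDR 0.712). RefSeq promoter windows of Kcnab1 also lie at chr3:64948962-64949261 and chr3:65187853-65188152, and peaks there were not counted as promoter peaks.

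The central 200 bases of 4 peaks that opened are printed from the GRCm38.p6 genome of RefSeq because the AP-1 motif recurs in them: 3 of the 5 opened peaks of Kcnab1 and the opened peak of Kcnj5 that leptin closed. The other 2 opened Kcnab1 peaks held no AP-1 match. Capitals mark matches to TGANTCA, the letters searched on both strands for AP-1, the dimer of Fos and Jun proteins. The Kcnab1 windows are on the plus strand (chr3:65134991-65135190, chr3:65160979-65161178 and chr3:65297089-65297288) and that of Kcnj5 on the minus strand (chr9:32326326-32326525). The first 2 Kcnab1 windows and that of Kcnj5 are intronic, and the third is in a Kcnab1 intron and in an exon of A330015K06Rik on the other strand.
Kcnab1 peak 25707: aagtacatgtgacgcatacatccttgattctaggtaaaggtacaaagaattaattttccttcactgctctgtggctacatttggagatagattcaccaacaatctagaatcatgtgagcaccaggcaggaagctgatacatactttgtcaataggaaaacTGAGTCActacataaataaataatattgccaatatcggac
Kcnab1 peak 51695: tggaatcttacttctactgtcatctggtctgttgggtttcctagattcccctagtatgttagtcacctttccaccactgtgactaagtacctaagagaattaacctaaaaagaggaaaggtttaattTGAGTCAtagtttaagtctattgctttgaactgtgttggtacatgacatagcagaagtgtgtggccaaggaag
Kcnab1 peak 187805: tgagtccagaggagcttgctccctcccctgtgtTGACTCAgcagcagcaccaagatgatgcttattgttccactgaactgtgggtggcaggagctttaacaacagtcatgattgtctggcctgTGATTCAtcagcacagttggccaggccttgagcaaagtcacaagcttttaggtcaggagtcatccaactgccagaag
Kcnj5 peak 17924: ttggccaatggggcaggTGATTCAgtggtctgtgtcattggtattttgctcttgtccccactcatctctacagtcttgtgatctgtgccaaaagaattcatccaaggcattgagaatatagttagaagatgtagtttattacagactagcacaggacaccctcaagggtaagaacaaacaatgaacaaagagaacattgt

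Over all Kcn peaks this motif was in the central 200 bases of 87 of 134 opened (64.9%), 6 of 70 closed (8.57%) and 133 of 522 uncalled peaks (25.5%). Over all peaks of the set the shares were 61.3%, 3.35% and 20.7%, and 26.5% of all peaks held a match. The STAT motif TTCNNNGAA was in 10.4% of opened and 14.3% of closed Kcn peaks (7.89% and 12.0% of all opened and closed peaks, 8.71% of all peaks), and GAAANNGAA, part of the interferon regulatory factor motif, in 8.21% and 5.71% (6.3% and 8.93%, 6.62% of all peaks). The cyclic AMP response element TGACGTCA was in 1 of 134 opened and in none of the closed Kcn peaks, and in 0.54% of all peaks. A match describes the letters and does not show that a factor was bound.

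Both peaks assigned to Kcnv2 opened with fasting. The one 12757 bases from its start (chr19:27335143-27335547, over an exon) went from 0.378 and 0.439 CPM to 8.21 and 6.69 CPM and was at 9.01 and 7.81 CPM after leptin, and at 4.13 ± 0.55 (edgeR FDR 4.53e-05) it was the largest opening among Kcn peaks without overlap. The second, at 14305 bases (chr19:27336479-27337308), went from 15.2 and 10.0 to 43.2 and 28.2 CPM (1.55 ± 0.26, FDR 0.000244). At Kcnj5, 2 of 5 peaks opened, at 17924 bases (chr9:32326154-32326699, intron) from 3.52 and 1.46 to 14.3 and 6.00 CPM (2.17 ± 0.49, FDR 0.00302) and at 27304 bases (chr9:32316892-32317201) from 0.755 and 0.951 to 7.24 and 5.11 CPM (2.80 ± 0.47, FDR 0.000297). Single openings were found at Kcnmb4.2 (9659 bases, from 0.378 and 1.61 to 4.98 and 5.24 CPM, 2.15 ± 0.45), Kcnk1 (15905 bases, from 2.52 and 3.44 to 7.69 and 6.69 CPM, 1.22 ± 0.36) and Kcnj4 (1901 bases, from 9.82 and 15.7 to 25.99 and 23.9 CPM, 0.91 ± 0.26). Kcnc2 had 1 opened (1.04 ± 0.36) and 2 closed peaks (-1.01 ± 0.27 and -1.93 ± 0.50), and the 1 peak of Kcnv1 was not called (-0.38 ± 0.24). No promoter peak of these genes was called, with promoters taken at a single GENCODE start per gene. The largest changes at other Kcn genes were openings at Kcnh1 (3.50 ± 0.56) and Kcnh7 (3.52 ± 0.84) and closings at Kcnh1 (-2.80 ± 0.62), Kcnip4 (-2.61 ± 0.40) and Kcnh8 (-2.52 ± 0.56). Both openings started near the floor, from 0.126 and 0.731 to 4.85 and 6.82 CPM at Kcnh1. The Kcnh7 peak went from 0.252 and 0.0731 to 1.75 and 1.64 CPM. It passed the mean of 1 CPM only through the fasted and leptin libraries, so it could hardly have been tested without being higher there.

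Leptin against fasting opened 18 Kcn peaks at 13 genes and closed 3, where 2.41% of all peaks opened and 0.669% closed. No promoter peak was called. The peaks that fasting had opened had a median of 1.77 CPM in fed, 6.51 CPM in fasted and 6.15 CPM in leptin-treated nuclei, and 1 of the 134 was called closed by leptin. Those that fasting had closed had medians of 5.38, 2.02 and 1.87 CPM, and 3 of 70 were called reopened. The fed and fasted medians follow from choosing peaks by their fasting call. How often fasting-opened or fasting-closed peaks of all genes were called with leptin is not given. These counts therefore describe Kcn peaks alone. The 1 peak opened by fasting and closed by leptin was that of Kcnj5 at 17924 bases, at 4.999 and 2.38 CPM after leptin (-1.50 ± 0.41, edgeR FDR 0.0458). The leptin libraries lay below both fasted ones and overlapped the fed ones. The reverse course was seen in an intronic peak of Kcnk2 (chr1:189221579-189221842), at 3.40 and 1.61 CPM when fed, 0.323 and 0.947 CPM when fasted and 3.45 and 2.77 CPM after leptin (-1.83 with fasting and 2.25 ± 0.52 with leptin, FDR 0.0172). With that Kcnk2 peak, Kcnh1 (2.76 ± 0.49) and Kcnmb2 (2.12 ± 0.34, from 1.68 and 1.89 to 7.25 and 8.32 CPM) had the largest openings without overlap. The Kcnh1 peak rose from near the floor, 0.582 and 0.316 CPM, to 3.17 and 3.00 CPM. It passed the mean of 1 CPM only through the leptin libraries. Kcnip4 (-1.90 ± 0.50) and Kcnj6 (-0.83 ± 0.22) were the other genes with a closed peak. With 2 libraries per state this count was sensitive to single libraries: between 2 peaks (without leptin library 1) and 25 peaks (without fed library 1) were called.

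In nuclei of fed, untreated mice, 424 peaks lay at 78 Kcn genes. Of these 116 were more open in AgRP-positive and 73 in AgRP-negative nuclei (27.4% and 17.2%), where 23.9% of all peaks were higher and 15.6% lower in AgRP-positive nuclei. With library size as the only scaling the median of all peaks moved to 0.16 and the split was 129 and 54. The main fit did not pair AgRP-positive with AgRP-negative nuclei of the same pool. With the replicate number as a block the split was 125 and 79. At promoters 3 of 69 peaks were higher, those of Kcnk9 (0.77 ± 0.23), Kcna5 (0.99 ± 0.15) and Kcnj5 (0.82 ± 0.28), and 18 were lower (26.1%), where 2.5% of all promoter peaks were higher and 12.9% lower. Among the lower ones were those of Kcns2 (-2.31 ± 0.20), Kcna1 (-2.35 ± 0.28), Kcnj10 (-1.77 ± 0.26), Kcnab1 (-1.14 ± 0.23) and Kcnip2 (-0.82 ± 0.24). Outside promoters 113 and 55 of 355 peaks were called (31.8% and 15.5%), where 28.8% of all such peaks were higher and 16.3% lower. The promoter of Kcnj5 was at 12.4 and 9.002 CPM in AgRP-positive and 5.42 and 6.63 CPM in AgRP-negative nuclei, and that of Kcna5 at 46.0 and 53.7 against 23.2 and 27.0 CPM.

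Of the 7 peaks of Kcnj10 none was higher and 6 were lower in AgRP-positive nuclei (median -2.11). Kcnma1 had 20 higher and 2 lower of 39 peaks, Kcnip4 14 and 2 of 31, and Kcnip1 11 and 0 of 28. The largest single differences were at Kcnip1 (19.1 and 18.8 against 2.46 and 1.07 CPM, 3.42 ± 0.32), Kcnq5 (3.204 ± 0.36) and Kcnmb2 (33.9 and 39.8 against 4.43 and 4.74 CPM, 3.00 ± 0.22). The lowest were at Kcns3 (-2.80 ± 0.82), Kcnt2 (-2.75 ± 0.73) and Kcnj6 (-2.69 ± 0.42). In AgRP-positive nuclei the Kcns3 (0.267 and 0.417 CPM) and Kcnt2 peaks (0.356 and 0.500 CPM) were near the floor. They passed the mean of 1 CPM only through the AgRP-negative nuclei. Kcnv2 was more open in AgRP-positive nuclei at its 1 peak, near the end of the gene (9.24 and 13.8 against 2.59 and 2.37 CPM, 2.22 ± 0.34), although its RNA in fed AgRP libraries was at the level of a few counts.

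RefSeq promoter windows, 250 bases before to 50 after a start, were at hand for 70 of 94 Kcn symbols (95 windows of 32851). The AP-1 letters TGANTCA were in 4 of them (4.21%, against 7.81% of all windows), the STAT letters TTCNNNGAA in 8 (8.42% against 8.3%), the letters GAAANNGAA in 10 (10.5% against 8.56%) and TGACGTCA in none (1.79% of all). The 10 windows of genes raised by fasting held no AP-1 match, 1 STAT match (Kcnab1), and 4 of them held GAAANNGAA, all windows of Kcnab1 or Kcnc2, of which the 2 of Kcnc2 are nearly the same stretch and hold the same site. No match says only that these letters are not in this window.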

How the data were processed

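RNA (TRAP) and ATAC-seq counts were analysed. For RNA the authors used HISAT2 (genome mm10) and featureCounts, with an annotation altered to limit overlaps. For ATAC-seq they used Bowtie2 for alignment, MACS2 for peaks and BEDtools for counting. The values used are the raw counts as deposited, one column per library. Features with a mean over 1 CPM entered TMM scaling and the quasi-likelihood test of edgeR 4.0.16 in R 4.3.3, with state, line and state, or sort as the factor. Benjamini-Hochberg adjustment covered every feature tested. A call needed both an adjusted p (FDR) below 0.05 and a log2 fold change beyond 0.5 in size. Standard errors follow from the F statistic. Tables were made in Python 3.11.15 with pandas 2.3.3 and NumPy 2.4.6, and coordinates are GRCm38 (GENCODE vM21). The fits were tested on simulated counts.

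Members and lists were chosen with earlier results of these data known. Named were genes called within a line or in an interaction, the 8 largest differences each way between the lines without overlap, the 8 highest per kilobase in each line, channels fixed by role, and for peaks the 3 largest changes each way, peaks of genes called in RNA and their promoters. Other genes were named after their values were seen. Residuals of same-numbered AgRP libraries correlated at 0.536 to 0.814 (median 0.700, 10 pairs). Those of different-numbered AgRP libraries correlated at -0.642 to 0.642 (median -0.236, 30 pairs). The numbers were therefore used as a replicate block in an alternative fit, although the 2 ranges overlap. In POMC libraries the correlation was 0.733 to 0.770 over 2 numbers, in ATAC-seq of the 3 states -0.00228 to 0.165 and in sorted nuclei 0.0988. Between lines, same-numbered libraries correlated at -0.526 to 0.358. Alternatives were DESeq2 1.42.0, the older edgeR quasi-likelihood, other scalings, no filter, the replicate block, each state alone, other peak windows and leaving out each library. Leaving out the libraries numbered 4 (AgRP) and 2 (POMC) was chosen after seeing the data. Kcnk3, whole arcuate nucleus RNA, log2 CPM tables and CUT&RUN files were not analysed here. Some genes that the rule would name are not reported here.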

Additional observations from a re-analysis of the deposited data

Results flagged for a closer look

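In the groups of 4 libraries (fasted and leptin-treated AgRP neurons), 72 pairs of a named gene and a group were examined for 1 library far from the other 3 by Dixon's ratio, which chance passes in about 1 in 20 groups. Of 18 such values, 16 were in the libraries numbered 4. These libraries also had the highest astrocyte marker sums, and the part this plays was not tested.

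In fasted library 4, Kcnj10 was at 851 CPM (others 131 to 160), Kcnq3 at 413 (70.9 to 83.5), Kcnma1 at 353 (100 to 120), Kcnd3.2 at 347 (188 to 209), Kcnj6 at 225 (46.6 to 52.1), Kcnn3 at 104 (46.3 to 55.5), Kcna3 at 87.9 (47.3 to 49.8) and Kcnj16, a glial inward rectifier, at 30.7 CPM (13.8 to 15.3). All 8 were above the other fasted libraries.

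In leptin library 4, Kcnj10 was at 822 CPM (others 145 to 213), Kcna2 at 670.1 (215 to 260.3), Kcnq3 at 408 (94.5 to 123), Kcnma1 at 338 (106 to 117), Kcnc1 at 244 (166 to 178), Kcnj6 at 178 (49.5 to 59.4), Kcnn3 at 92.6 (50.0 to 56.5) and Kcna3 at 69.8 CPM (40.1 to 41.1). Kcna2 and Kcnc1 are neuronal delayed rectifiers and Kcnj10 is the astrocytic channel, so neuronal and glial Kcn genes were high together in this library.

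Kcnd2, an A-type channel, was at 125 CPM in leptin library 1 (others 117.6 to 118). Kcnv2 was at 3.23 CPM in leptin library 3 (others 0.479 to 0.885), inside the range of the fasted libraries.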

How the results depend on the processing

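With 2 to 4 libraries per group, calls near a threshold moved with the setting, and the cause of each change was not tested. No named gene or peak changed sign under a call. With library size as the only scaling, the Kcn genes called were 4 for fasting, 1 for leptin against fasted and 1 for leptin against fed in AgRP neurons. Where the share of all genes called under a setting is not given, its count cannot be read as particular to Kcn genes. Without the libraries that stood apart they were 14 for fasting and 7 for leptin against fed. The replicate block gave 8 for leptin against fed, 8 for the fasting interaction and 2 for the leptin interaction, and it changed no POMC call. For AgRP against POMC neurons, where equal numbers do not pair libraries, the block gave 28 (19.3% of all genes), fed libraries alone 5 and leptin libraries alone 5. DESeq2 called 2 and DESeq2 size factors 1 in the fasting interaction. Promoter peaks alone gave 1 call for fasting, 0 for leptin and 21 in sorted nuclei. For leptin peaks, DESeq2 gave 11, the older edgeR test 10 and the block 40, and in sorted nuclei DESeq2 gave 123.

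Leaving out 1 library gave 3 (fed 1) to 9 (fasted 4) Kcn genes for fasting, 2 (fasted 1) to 6 (fasted 4) for leptin against fasted, 1 (fed 1) to 4 (leptin 4) for leptin against fed, 0 to 0 in both POMC contrasts, 14 (POMC fed 2) to 22 (AgRP fasted 4) between the lines, 0 to 1 for the fasting and 0 to 0 for the leptin interaction. For peaks it gave 114 (fed 1) to 181 (leptin 2) with fasting, 2 (leptin 1) to 25 (fed 1) with leptin and 114 (AgRP-negative 1) to 162 (AgRP-positive 2) in sorted nuclei, fewer than with all libraries in both fasting and sorted nuclei. Depth limits Kcnv2, whose fed libraries held 7 to 10 counts. The libraries that stood apart could not be left out of the POMC contrasts alone, since 1 library per state would remain.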
